A study of Mus musculus with 6 samples.

Results

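The enzymes of cholesterol synthesis were followed through 7 of their genes, *Hmgcs1*, *Idi1*, *Fdps*, *Fdft1*, *Sqle*, *Lss* and *Dhcr7*, in RNA-Seq libraries from mouse brainstem. They were taken by gene name from the deposited transcript assembly as sterol synthesis genes active during myelination, and each lay on a single locus, so that they make up 7 of the 34632 loci measured. The study asked which genes depend on HOXA5, a transcription factor of the *Hox* family, in the postnatal brainstem. The genotypes were compared at postnatal day 21, with 3 libraries each and RNA pooled from 3 brainstems in each library. *Hoxa5* control animals were Hoxa5flox/flox;CMV-CreERT2-/- and *Hoxa5* cKO animals, their littermates, were Hoxa5flox/flox;CMV-CreERT2+/-. All animals carried the floxed allele in both copies and received tamoxifen in 4 intragastric injections on postnatal days 1 to 4, so that the groups differ by label in the transgene. In this model the CMV promoter drives the tamoxifen-activated recombinase broadly rather than in 1 cell type, and the background was mixed, principally 129/Sv. The table numbers the libraries of each genotype, and these numbers are used here as names, since nothing ties them to a particular pool.

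Cholesterol is made from acetyl-CoA by a long chain of enzymes. The upstream steps, the mevalonate pathway, end in farnesyl pyrophosphate, from which dolichol, ubiquinone and prenyl groups on proteins are also made. The downstream steps join farnesyl units into squalene, close the rings to lanosterol and trim lanosterol to cholesterol. Brain cholesterol is made locally, because lipoproteins do not cross the blood-brain barrier, and myelinating oligodendrocytes are large producers of it in the first postnatal weeks. When sterols run low, the SREBP factors are released from the endoplasmic reticulum by SCAP, bind sterol regulatory elements and raise transcription of these enzymes.

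The promoters of *Hmgcs1*, *Idi1*, *Lss* and *Dhcr7* are shown because sequences were at hand for these 4 genes alone. They were searched for short motifs through which such coordinated transcription is known to work. Of the 7 genes, 4 were matched in the RefSeq promoter table for GRCm38.p6, the assembly on which the mm10 of the data is based. The 250 bases before the start site are printed 5′ to 3′ on the gene's strand. Capitals mark TCACNCCA, a core of the sterol regulatory element, and CCAAT, the box bound by NF-Y, on either strand, and no match of one overlapped a match of the other.
Hmgcs1, chr13:119690101-119690350, + strand: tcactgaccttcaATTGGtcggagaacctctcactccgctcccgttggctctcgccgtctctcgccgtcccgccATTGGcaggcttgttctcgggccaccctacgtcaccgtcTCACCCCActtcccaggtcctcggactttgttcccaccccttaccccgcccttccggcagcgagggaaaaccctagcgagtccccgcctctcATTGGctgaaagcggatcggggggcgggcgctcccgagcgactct
Idi1, chr13:8885356-8885605, + strand: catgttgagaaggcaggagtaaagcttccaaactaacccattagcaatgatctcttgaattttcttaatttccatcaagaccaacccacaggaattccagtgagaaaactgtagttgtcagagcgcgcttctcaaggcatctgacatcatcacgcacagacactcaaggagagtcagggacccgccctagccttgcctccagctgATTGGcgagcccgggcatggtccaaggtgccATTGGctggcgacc
Lss, chr10:76531355-76531604, + strand: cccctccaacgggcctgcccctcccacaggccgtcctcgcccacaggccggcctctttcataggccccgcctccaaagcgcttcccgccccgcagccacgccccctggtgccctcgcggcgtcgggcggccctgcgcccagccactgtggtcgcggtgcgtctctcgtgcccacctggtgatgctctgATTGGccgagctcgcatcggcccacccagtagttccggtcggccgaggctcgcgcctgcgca
Dhcr7, chr7:143829964-143830213, + strand: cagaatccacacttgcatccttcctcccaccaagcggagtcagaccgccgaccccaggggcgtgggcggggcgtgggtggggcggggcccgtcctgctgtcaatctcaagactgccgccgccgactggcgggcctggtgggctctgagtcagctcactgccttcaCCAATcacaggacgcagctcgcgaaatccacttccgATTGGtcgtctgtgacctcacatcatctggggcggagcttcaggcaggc
Of the 3 start sites that RefSeq gives *Dhcr7*, the one shown, at 143830214, was chosen because it holds motif matches, and the other 2 hold no CCAAT. The sterol element core was found in *Hmgcs1* alone, at bases -137 to -130 from the start site, reading TCACCCCA. Over all 32851 promoters of the same length, which run from 250 bases before the start to 50 after it, 1433 (4.362%) held it. CCAAT was found in 4 of the 6 promoters of these genes, which cover all 4 genes, and in 37.41% of all promoters or 41.06% of all genes. It lay at -45 to -41 in both *Hmgcs1* and *Idi1*, at -62 to -58 in *Lss*, and at -49 to -45 in *Dhcr7*, each time read from the opposite strand (capital ATTGG). *Hmgcs1* held 4 such matches, 3 of them in the bases printed. Another motif, GGGCGG, which is bound by Sp1, was found in 5 of the 6 promoters, covering all 4 genes, and in 35.66% of all promoters or 38.2% of all genes. These are matches of letters in a fixed window, and binding was not measured.

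**Figure D1:**
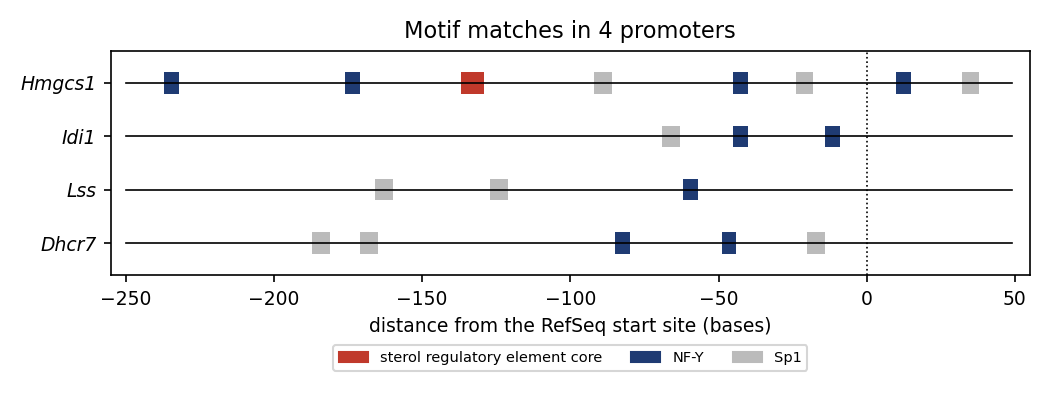
Positions of motif matches in the promoters of *Hmgcs1*, *Idi1*, *Lss* and *Dhcr7* (start site at 143830214), plotted as distance from the RefSeq start site in bases. Boxes are matches of TCACNCCA (red), CCAAT (blue) and GGGCGG (grey) on either strand. The red box stands in *Hmgcs1* alone, and each line has a blue box within 62 bases before the start. For *Dhcr7* the start site was chosen because it holds matches, and its other start sites hold no CCAAT.

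The libraries held 12034613 to 13202707 fragments each, and 21854 loci had enough fragments to be tested. The *Hoxa5* locus, which the assembly joins with *Hoxa6* and a further transcript on chromosome 6 (52201754 to 52211868), held 202, 337 and 77 fragments in control and 279, 57 and 63 in cKO. The libraries labelled cKO 1 and control 3 therefore went against their labels at this locus. Its log2 fold change was -0.62 ± 0.48 (SE, edgeR adjusted p = 0.893), or -1.82 (adjusted p = 0.0318) without cKO 1. Leaving out control 1, 2 or 3 gave -0.62, -0.047 and -1.04, and leaving out cKO 2 or 3 gave -0.23 and -0.28. In none of those fits was the locus called. Since the locus joins several transcripts, it does not measure the deleted part alone. By RT-qPCR, the paper reports that *Hoxa5* transcripts were strongly reduced in subregions of the brainstem. Fragments of 4 Y-linked genes numbered 3 in the library labelled cKO 1 and 1069 to 1734 in the others, so cKO 1 held almost no RNA from males. Brainstem markers were present (6 of 6 tested), and of the forebrain markers *Emx1* and *Tbr1* held at most 9 fragments in any library, whereas *Neurod6* held 32 to 44. All 4 cerebellar granule neuron markers and all 4 Purkinje cell markers were called lower in cKO, with median log2 fold changes of -1.94 and -1.73. The controls also differed among themselves in the summed CPM of these markers. Granule neuron markers held 528, 344 and 271 in control and 98.2, 127 and 106 in cKO. Purkinje cell markers held 156, 88.7 and 91.3 in control and 34.7, 45.4 and 40.9 in cKO. In pooled tissue, fewer cells of a type, whether lost or left out at dissection, and less RNA per cell cannot be told apart.

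All 7 genes were well expressed. The order of their levels was read from FPKM, fragments scaled to transcript length and to library depth, as Cuffdiff gave it. *Hmgcs1*, which encodes the cytosolic HMG-CoA synthase that commits acetyl units to the mevalonate pathway, stood first with 268 ± 9.27 FPKM in control and 254 ± 18.4 in cKO (SD, n = 3). It exceeded the next gene 3.67-fold, and in each library it supplied between 49.3% and 50.9% of the summed FPKM of the 7 genes. *Fdps*, the synthase of farnesyl pyrophosphate, had 71.0 ± 1.73 and 71.5 ± 6.39 FPKM. *Sqle*, the epoxidase that adds oxygen to squalene, had 56.6 ± 0.203 and 55.4 ± 2.93 FPKM. *Idi1*, the isomerase that supplies the reactive isoprene unit, had 55 ± 2.12 and 51.2 ± 4.55 FPKM. The libraries of *Sqle* (52.0 to 57.3) and *Idi1* (46.3 to 57.2) overlapped, so those neighbours were not told apart, whereas the ranges of every other pair of neighbours were separate.

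The lower part of the order held enzymes of the sterol branch. *Fdft1*, the squalene synthase, had 38.0 ± 0.481 FPKM in control and 36.3 ± 2.95 in cKO. *Lss*, the cyclase that forms lanosterol, had 28 ± 2.36 and 25.6 ± 2.8. *Dhcr7*, the reductase of the final step, was lowest with 18.5 ± 1.54 and 18.1 ± 0.436. Even so, the mean FPKM of *Dhcr7* was higher than that of 88.7% of all loci, and that of *Hmgcs1* was higher than that of 99.6%. Dividing counts scaled to library size by the assembled exon length instead left *Hmgcs1* first at 234 per kilobase but put *Sqle* (51.6) above *Fdps* (42.0).

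**Figure D2:**
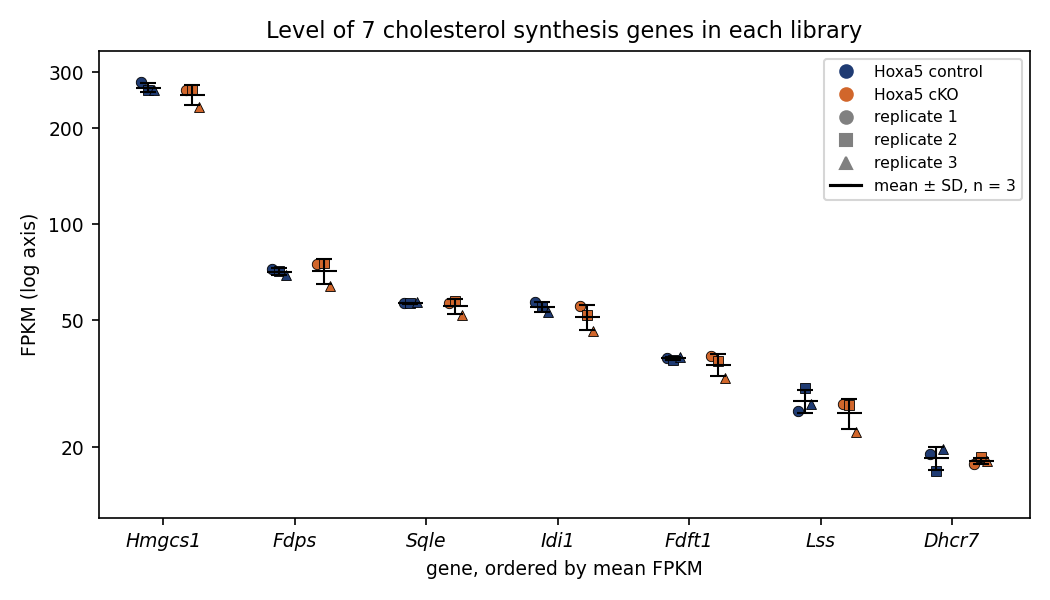
FPKM of the 7 genes in each library on a log axis, ordered by mean. Points are the 6 libraries (blue, *Hoxa5* control; orange, *Hoxa5* cKO; shape, replicate name), and bars are mean ± SD of 3. *Hmgcs1* stands well above the rest in every library, the 2 genotypes overlap for each gene, and the orange triangle (cKO 3) is the lowest point of 6 genes.

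Between the genotypes, no difference was detected for any of the 7 genes. None was called at an adjusted p under 0.05 in edgeR, where 116 of the 21854 loci (0.531%) were called, 110 of them lower in cKO (0.503%) and 6 higher (0.0275%). DESeq2 also called none of the 7, and 0.585% of all loci. None reached an unadjusted p under 0.05 in edgeR, against 6.94% of all loci (4.03% lower, 2.91% higher), and none had separate genotypes, against 12.2%. The 7 log2 fold changes ran from -0.12 to 0.03 with a median of -0.06, beside 0.0034 for all loci. Their 95% intervals, taken gene by gene, reached no lower than -0.25 and no higher than 0.16, which is a fall of at most 16.2% and a rise of at most 11.8% in expression. With the mean of the granule neuron and Purkinje cell markers as a covariate, which itself parts the genotypes, the median of the 7 was 0.05 and none was called, and the part of those markers and of the genotype cannot be told apart.

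The mevalonate and isoprene steps are given first, in CPM, the counts scaled to TMM-adjusted library size. *Hmgcs1* (chromosome 13, 119690366 to 119708084, + strand of mm10) had 842, 799 and 795 CPM in control libraries 1 to 3 and 814, 804 and 704 in cKO libraries 1 to 3. Only cKO 3 lay below the controls, and the log2 fold change was -0.07 ± 0.05 (SE, edgeR adjusted p = 0.889). *Idi1* (chromosome 13, 8885606 to 8892414, + strand) had 143, 139 and 132 CPM in control and 143, 129.7 and 115 in cKO. The cKO libraries held both its highest and its lowest value, with a log2 fold change of -0.09 ± 0.06 (adjusted p = 0.870). *Fdps* (chromosome 3, 89093556 to 89102008, - strand) had 96.0, 93.3 and 92.1 CPM in control and 99.9, 102 and 86.4 in cKO. Here 2 cKO libraries lay above all controls and cKO 3 below them, and the log2 fold change was 0.03 ± 0.06 (adjusted p = 0.958).

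In the squalene steps, too, cKO 3 lay below the other libraries. *Fdft1* (chromosome 14, 63145150 to 63177793, - strand) had 115, 113 and 117 CPM in control and 118, 114 and 99.9 in cKO, a log2 fold change of -0.06 ± 0.06 (adjusted p = 0.904). Its locus overlaps *Ctsb* on the other strand by 774 bases, and *Ctsb* held 5337 to 5968 fragments per library, so some fragments may belong to either gene, as the strand setting of the counting is not given in the sources used here. *Sqle* (chromosome 15, 59315092 to 59331193, + strand) was the steadiest of the 7, with 143, 142 and 143 CPM in control and 144, 145 and 133 in cKO. Its highest library was 1.09 times its lowest, and its log2 fold change was -0.02 ± 0.05 (adjusted p = 0.969). In both genes cKO 1 and cKO 2 lay within or above the range of the controls, and cKO 3 alone lay below it.

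The ring closure and the last reduction varied more between controls. *Lss* (chromosome 10, 76531615 to 76557254, + strand) had 132, 148 and 127 CPM in control and 134, 124 and 116 in cKO. Control 2 was its highest library and 2 cKO libraries lay below all controls, but cKO 1 exceeded 2 controls. The log2 fold change of -0.12 ± 0.06 had the smallest p of the 7 (unadjusted p = 0.0706, adjusted p = 0.781), with a 95% interval of -0.25 to 0.01. *Dhcr7* (chromosome 7, 143823167 to 143848410, + strand) had 43.5, 37.4 and 44.4 CPM in control and 40.0, 42.3 and 40.7 in cKO. All its cKO values fell inside the control range, and the log2 fold change was -0.03 ± 0.07 (adjusted p = 0.977). It was the 1 gene of the 7 whose lowest library was a control.

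**Figure D3:**
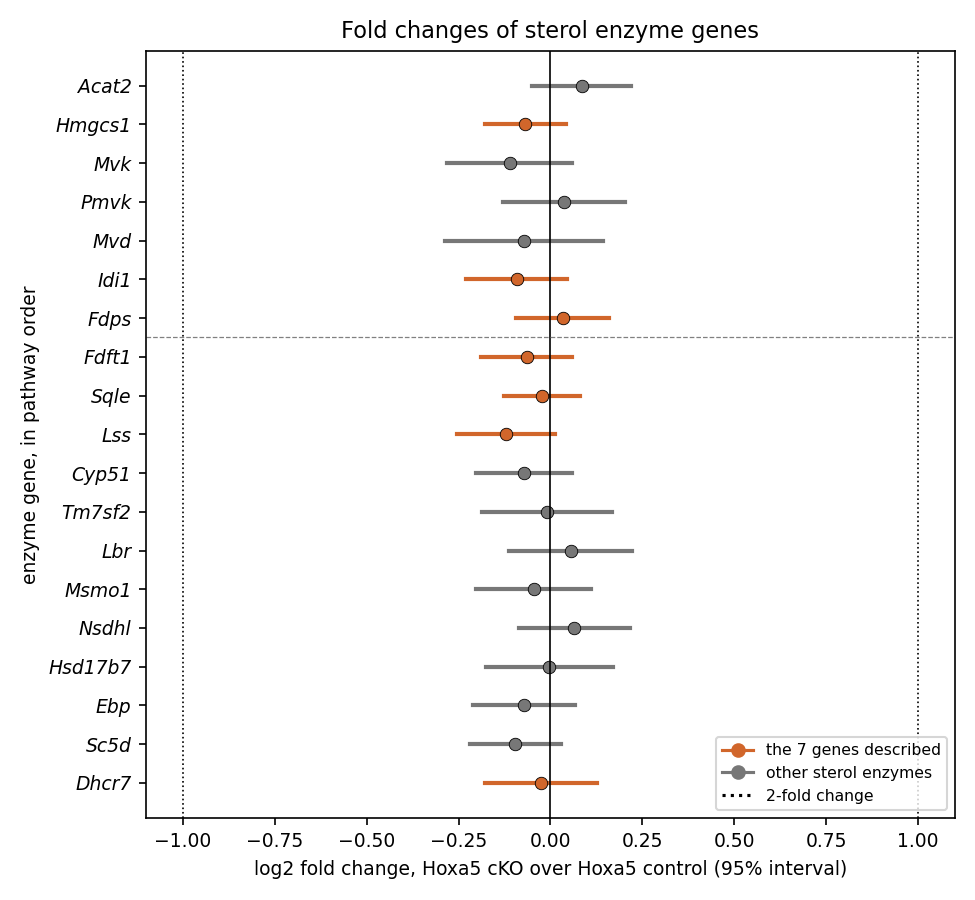
Log2 fold change of *Hoxa5* cKO over *Hoxa5* control with its 95% interval (edgeR, not adjusted over genes) for 19 sterol enzyme genes in pathway order, the dashed line parting the steps up to farnesyl pyrophosphate from those after it. Orange marks the 7 genes described and dotted lines a 2-fold change. Every interval crosses 0 and none reaches beyond -0.29 or 0.22.

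Of the 7 genes, 6 departed together in 1 library, and *Dhcr7* did not. The library labelled cKO 3 was the lowest of the 6 for 6 of the 7 genes, and its mean log2 CPM over the 7 deviated by -0.137 from the mean of all libraries, whereas the other 5 libraries deviated by 0.0136 to 0.05. The summed CPM of the 7 genes was 1514, 1473 and 1451 in control and 1492, 1461 and 1295 in cKO, so cKO 1 and cKO 2 lay within the range of the controls and cKO 3 below it. Without cKO 3 the median log2 fold change of the 7 was -0.0052, and without the library labelled cKO 1 it was -0.11, with none of the 7 called either way. Over all loci tested, cKO 3 was the lowest library for 19.1%, and for 22.8% of those with a single gene name.

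The cKO 3 library was also at an extreme in several other properties. *Rn45s*, the ribosomal RNA precursor, took 1.21% of its fragments and 0.279% to 0.551% of those of the other libraries, although ribosomal RNA had been depleted from all. *Lars2* took 0.493% against 0.0342% to 0.218%. The library labelled cKO 2 came next in both, while its mean log2 CPM over the 7 genes deviated by 0.0147. The 10040 loci with a single name and at least 10 CPM were split into 5 equal classes by assembled exon length. The median log2 deviation of cKO 3 was -0.06 in the shortest class and 0.02 in the longest. That of cKO 1 ran the other way, with 0.05 and -0.03. The share of loci with their lowest value in cKO 3 was 41.0% in the shortest class, 30.4% in the next and 12.5% in the longest, and 5 of the 7 genes belonged to the 2 shortest classes. Myelinating oligodendrocyte markers, *Mbp* among them, were lowest in cKO 3 for 10 of 13, and their mean log2 CPM was 9.43 there, 9.73 in cKO 1 and 9.53 to 9.61 in the other 4. Microglia markers were lowest in cKO 3 for 6 of 7, with a mean log2 CPM of 3.70 there and 3.79 to 3.99 in the other libraries. The part of these in the low values of cKO 3 was not tested.

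**Figure D4:**
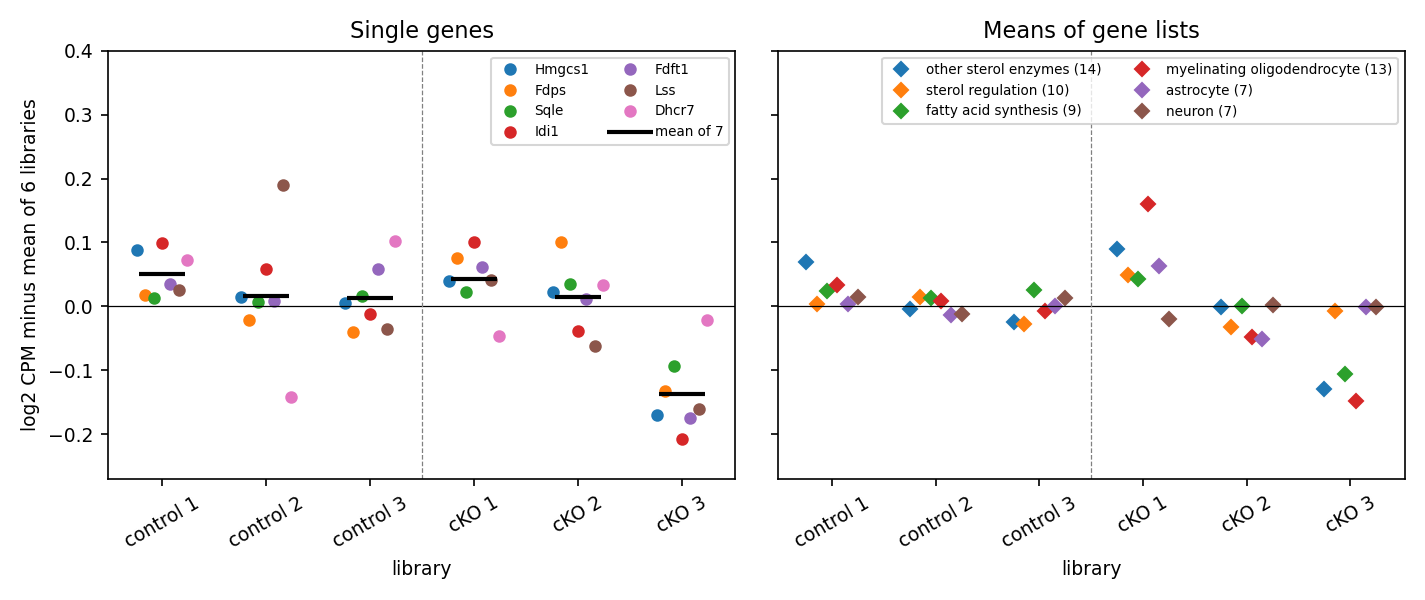
Log2 CPM of each library minus the mean of the 6 libraries, for the 7 genes (left, black bar their mean) and for the means of 6 gene lists (right, number of genes tested in brackets). In cKO 3 the 7 genes average -0.137, and the means of the other sterol enzymes, fatty acid synthesis and myelinating oligodendrocyte genes are also at their lowest, while sterol regulators, astrocyte and neuron markers stay near 0. Microglia markers, which are not drawn, were also lowest in cKO 3.

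In the pathway as a whole, of 21 sterol enzymes, the 7 included, none was called in either direction, against 0.531% of all loci, and 16 were negative and 5 positive with a median log2 fold change of -0.05. *Tm7sf2*, 1 of them, shares its locus with another transcript. The 8 enzymes up to farnesyl pyrophosphate had a median of -0.07 and the 13 after it a median of -0.04. *Mvk*, mevalonate kinase, and *Acat2*, which joins acetyl-CoA units, had log2 fold changes of -0.11 ± 0.08 and 0.08 ± 0.06 (edgeR adjusted p = 0.881 and 0.887). Downstream, *Sc5d*, a sterol desaturase, had -0.10 ± 0.06 and *Cyp51*, the lanosterol demethylase, -0.07 ± 0.06 (adjusted p = 0.848 and 0.900). The library labelled cKO 3 was lowest for 16 of the 21. Without it, the medians of the 8 and the 13 were 0.03 and 0.02.

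Genes that set the activity of the pathway were lowest in cKO 3 about as often as loci in general. This held for 2 of the 10 tested, beside 19.1% of all loci tested and 22.8% of those with a single name. Of 11 regulators, 10 had enough fragments to be tested, and none was called, with a median log2 fold change of 0.01. *Srebf2*, the SREBP most tied to sterol synthesis, had 126, 121 and 119.9 CPM in control and 112, 126 and 132 in cKO, and so was highest in cKO 3 and lowest in cKO 1. *Scap*, the escort of the SREBPs, had 98.0, 103 and 95 CPM in control and 103, 97.4 and 85.5 in cKO. It was 1 of the 2 regulators among the 10 that were lowest in cKO 3, and was named, like *Srebf2*, after its values were seen. *Stard4*, a carrier of sterols between membranes, had 46.3, 42.8 and 41.8 CPM in control and 39.3, 36.6 and 41.8 in cKO. Its genotypes met at 41.8 without crossing, all cKO libraries lying below all controls, as for 6.56% of all loci. Its log2 fold change of -0.15 ± 0.07 was not called (unadjusted p = 0.0420, adjusted p = 0.685), 4.03% of all loci being lower at that unadjusted level. *Mylip*, a ubiquitin ligase induced by sterols, had 0.14 ± 0.10 with all cKO libraries above all controls, as for 5.61% of all loci. *Mbtps2*, a protease that releases the SREBPs, had 0.12 ± 0.09 and *Insig1*, which retains them, 0.05 ± 0.06, with adjusted p for these 3 of 0.882, 0.897 and 0.933.

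The 7 genes were not alike among themselves. Over the 6 libraries, which share their depth and their library effects, the Pearson correlation of log2 CPM with *Hmgcs1* was 0.93 for *Idi1*, 0.92 for *Fdft1* and 0.91 for *Sqle*, 0.77 for *Fdps* and 0.62 for *Lss*. *Dhcr7* stood apart, with correlations between -0.56 (with *Lss*) and 0.22 (with *Fdft1*). It also had the fewest fragments of the 7, 461 to 589 per library, and the largest standard error. The part of count noise in its low correlations was not tested. All these correlations are descriptions of 6 points in which cKO 3 lies at an extreme. Of 10033 other single-name loci with a mean of at least 10 CPM, those most like the mean of the 7 over the 6 libraries were *Gnb4* (r = 0.99), a G protein subunit, *Zbtb37* (0.99), 0610037P05Rik (0.99), *St13* (0.99), a cochaperone, and *Gmfb* (0.99), a glia maturation factor. None of these 5 is a sterol gene. Each was lowest in cKO 3, which largely follows from picking loci by likeness to a mean that departs most there. *Gnb4*, for example, had 56.7, 55.4 and 54.5 CPM in control and 56.6, 53.9 and 45.7 in cKO. Among the other sterol enzymes, *Msmo1* ranked highest by this measure, in place 72 (r = 0.94), followed by *Mvd* in place 133 (0.92). *Nsdhl* ranked 6229 (-0.06) and *Srebf2* 9164 (-0.68).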

How the data were processed

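RNA was measured in 6 libraries of P21 mouse brainstem (stranded, ribosomal RNA depleted). Per the labels and the study's methods, the authors used CASAVA 1.6, TopHat2 2.0.9 on mm10, Cufflinks 2.2.0 and Cuffdiff. The deposited table gives whole fragment counts and FPKM per locus and library. The authors' FPKM were scaled between libraries by Cuffdiff. The deposited counts were normalized by TMM and compared with edgeR 4.0.16 (quasi-likelihood test, filterByExpr, R 4.3.3), and a locus was called where its p, adjusted after Benjamini-Hochberg over all loci tested, was under 0.05. Of the loci tested, 14878 have a single name. The common coefficient of biological variation was 0.0552. P-values measure the spread between pools. On data simulated for this comparison (21380 loci), edgeR found 88.1% of 1.5-fold changes and 100% of 2-fold changes, with 4 false among 196 calls. For 1.5-fold changes, DESeq2 found 82.1% (4 false among 191 calls) and limma 60.6% (17938 loci, 11 false among 178 calls). Changes were placed only in loci above a floor of expected fragments. The shares found hold for such loci and for the simulated spread, which was the common coefficient at every locus. Whether that spread matches the one between the real libraries was not tested.

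Alternatives were DESeq2 1.42.0, other scalings and filters, limma 3.58.1 on log2(FPKM + 1) and log2(FPKM + 0.1) with FPKM of at least 1 required, each library left out, a replicate block, and covariates. Cuffdiff was not rerun. Named genes are *Hoxa5*, the 7 genes, the called genes or those with the smallest p of each list (up to 4 sterol enzymes or regulators, 3 elsewhere), and the 5 loci most like the mean of the 7. *Scap*, *Srebf2*, *Msmo1*, *Mvd*, *Nsdhl*, *Rn45s*, *Lars2*, *Mbp*, *Rbfox3*, *Emx1*, *Tbr1*, *Neurod6*, *Tm7sf2* and *Ctsb* were named after their values were seen. The genes and lists were chosen with earlier results of these data known. Values of some single genes of the lists are not reported here.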

Additional observations from a re-analysis of the deposited data

How the results depend on the processing

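None of the 7 genes was called in either direction under any of the 16 alternatives (lowest adjusted p 0.290, for *Idi1*). Against 110 loci called lower and 6 higher, there were 194 and 27 with no filter on low counts, 191 and 24 with the oligodendrocyte marker mean as covariate, 1 and 0 with the granule neuron and Purkinje cell marker mean, 0 and 0 with limma on log2(FPKM + 1), and 1 and 0 on log2(FPKM + 0.1). At least 50 fragments in 3 libraries left 1 higher. Leaving out 1 library gave 42 to 126 lower (42 without control 1, 64 without cKO 3) and 0 to 15 higher (0 without control 3, 1 without cKO 3, 2 without control 1, 13 without cKO 2, 15 without cKO 1).

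With the granule neuron and Purkinje cell covariate, which separates the genotypes itself, 4 log2 fold changes turned positive: *Hmgcs1* 0.13, *Idi1* 0.048, *Sqle* 0.028 and *Dhcr7* 0.11, the median of the 7 being 0.05. Leaving out 1 library, *Hmgcs1* ranged from -0.11 to -0.0052, *Idi1* from -0.17 to -0.016, *Lss* from -0.17 to -0.054, *Fdps* from -0.0067 to 0.10, *Fdft1* from -0.11 to 0.0018, *Sqle* from -0.042 to 0.017 and *Dhcr7* from -0.10 to 0.017, and the median of the 7 from -0.11 to -0.0052. The *Hoxa5* locus ranged from -1.82 to -0.047 under the same omissions. The causes were not tested. Per kilobase of assembled exons, an alternative chosen after the data were seen, levels were 234 CPM for *Hmgcs1*, 42.0 for *Fdps*, 51.6 for *Sqle*, 37.4 for *Idi1*, 32.5 for *Fdft1*, 15.6 for *Lss* and 9.67 for *Dhcr7*. An alternative by effective length was not run, because that column holds no values.

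Same-numbered libraries did not deviate together (correlations 0.032, -0.082 and 0.05). Because the numbers are names only, neither this nor the replicate block can show whether pools of littermates were paired. With the replicate block, 122 loci were called lower and 8 higher, no gene of the 7 was called, and the *Hoxa5* locus was at -0.69. With 461 to 589 fragments per library, *Dhcr7* had the fewest fragments of the 7 and the largest standard error.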

Other observations

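Genes next to sterol synthesis were also measured. Of 14 genes of sterol transport and turnover, 13 were tested and none was called, with a median log2 fold change of -0.05. *Lcat*, which esterifies cholesterol on lipoproteins, had 24.1, 24.9 and 20 CPM in control and 20.6, 19.6 and 18.7 in cKO. Its log2 fold change was -0.23 ± 0.09 (SE, n = 3 per genotype, edgeR unadjusted p = 0.0282, adjusted p = 0.638). Over all loci tested, 4.03% were lower at an unadjusted p under 0.05 in edgeR. *Soat1*, which esterifies cholesterol inside cells, and *Cyp27a1*, a sterol hydroxylase, had -0.08 ± 0.07 and -0.19 ± 0.15 (adjusted p = 0.902 and 0.897). None of 9 genes of the nonsterol branches was called, and their median was 0.04. *Dhdds*, a subunit of the enzyme that builds dolichol chains, had 49.6, 51.2 and 48.4 CPM in control and 55.9, 56.2 and 52.6 in cKO. All its cKO libraries lay above all controls, as for 5.61% of all loci. Its log2 fold change of 0.14 ± 0.06 failed the adjustment (edgeR unadjusted p = 0.0268, adjusted p = 0.629). Over all loci tested, 2.91% were higher at an unadjusted p under 0.05. *Fntb* and *Fnta*, the subunits of protein farnesyltransferase, had -0.15 ± 0.08 and -0.10 ± 0.06 (edgeR adjusted p = 0.791 and 0.849). Only *Fntb* of this pair had separate genotypes, all cKO libraries lying below all controls, as for 6.56% of all loci.

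Fatty acid synthesis, which supplies the other lipids of myelin, had none of 9 genes called and a median of -0.03, and cKO 3 was the lowest library for 8 of the 9. *Elovl6*, an elongase, had 193, 185 and 197 CPM in control and 178, 187 and 154 in cKO. Its log2 fold change was -0.15 ± 0.06 (edgeR unadjusted p = 0.0225, adjusted p = 0.603), and 4.03% of all loci were lower at an unadjusted p under 0.05. *Me1* and *Fasn*, the malic enzyme and the fatty acid synthase, had -0.07 ± 0.05 and -0.06 ± 0.04 (adjusted p = 0.882 and 0.889). Of 13 markers of myelinating oligodendrocytes none was called, with a median of -0.01. *Fa2h* and *Ugt8a*, enzymes of myelin galactolipids, had -0.08 ± 0.06 each, and *Mobp*, a myelin protein, 0.08 ± 0.07 (adjusted p = 0.865, 0.887 and 0.899). Among 7 neuron markers, *Rbfox3* fell by 0.30 on the log2 scale (adjusted p = 0.0205) and the other 6 were not called. The median of the 7 was 0.02, with 5 positive and 2 negative.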
